A study of Mus musculus with 33 samples.

Results

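Microglia that lack IRF8 and microglia from brains with amyloid were compared directly at 9 months, over the 9750 genes that averaged at least 5 CPM (counts per 1000000 gene counts of a library, scaled with edgeR's TMM factors) in WT or in 5xFAD libraries, of 54146 gene identifiers in the files. Of these genes, 9361 reached 5 CPM in WT and 389 reached it in 5xFAD alone. IRF8KO denotes mice with a knockout of Irf8, a group apart from the conditional knockout (IRF8cKO) of the series, and 5xFAD denotes mice that carry the amyloid transgenes with Irf8 intact, labelled 5xFAD/WT for genotype. Each group had 3 libraries of FACS-sorted microglia from 9-month-old C57BL/6 mice labelled female, and so did the WT and 5xFAD/IRF8KO groups, which were read beside them. The labels name no treatment. The series holds 33 libraries in 10 groups, of which 4 WT and 4 IRF8KO libraries at 3 months were also used. The comparison addresses which genes of the reactive state each condition raised more.

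IRF8 is a transcription factor of the interferon regulatory factor family that myeloid cells need for their development and identity. It binds DNA mostly with partners such as PU.1 or BATF3. Microglia near amyloid plaques lower their resting genes and raise a disease-associated programme, in which an early step (Apoe, Tyrobp, B2m, lysosomal proteases) is followed by a late one that depends on the lipid receptor TREM2 (Cst7, Clec7a, Lpl, Itgax, Spp1). 5xFAD mice express mutant human amyloid transgenes in neurons under the Thy1 promoter, so microglia meet the amyloid from outside, whereas a knockout of Irf8 acts within the myeloid cells and their precursors themselves.

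The libraries of these groups differed in more than the reactive genes, and those values come first. Gene counts per library ran from 7165054 to 8206354 in IRF8KO, from 1928739 to 11922037 in 5xFAD and from 605376 to 5757466 in WT. Of the reads, 48.6% to 53.4% were counted in genes in IRF8KO and 77.3% to 78.6% in 5xFAD, and 15.1% to 35.4% against 5.92% to 6.85% mapped to several places and were not counted. A list of 13 neutrophil genes took 8.92, 9.11 and 6.52% of gene counts in the IRF8KO libraries and at most 0.000207% in 5xFAD, where 4 of the 13 genes were at 0 counts and none reached 5 CPM. Red blood cell genes took 2.5, 16.7 and 7.03% in IRF8KO and 0.0123% ± 0.000903 (SD, n = 3) in 5xFAD. Monocyte genes took 1.22% ± 0.448 against 0.00161% ± 0.000244, with 4 of 11 at 0 counts in 5xFAD. Oligodendrocyte genes took 0.907% ± 0.194 against 0.0225% ± 0.00246, and astrocyte genes 0.340% ± 0.0430 against 0.0242% ± 0.00324. Neuron genes were at 0.221% ± 0.153 and 0.000336% ± 7.12e-05, with all 13 detected in either group. Genes of border macrophages, which line the vessels and meninges, took 0.116% ± 0.00832 against 0.0193% ± 0.00274. Of the 14 on that list, 10 reached 5 CPM in IRF8KO and 5 in 5xFAD, while 3 were at 0 counts in IRF8KO and 0 in 5xFAD. Wfdc17 and Stab1 of that list were lower in IRF8KO, as given below. In each of these 7 lists every IRF8KO library lay above every 5xFAD library, which with 3 against 3 gives p = 0.1 in a two-sided exact permutation test, the smallest it allows. Lymphocyte genes (p = 0.6) and endothelial genes (p = 0.3 in the same exact permutation test) overlapped between the groups. The 30 homeostatic microglia genes, which define the labelled cell type and were present in both groups, took 1.87, 0.893 and 1.72% in IRF8KO and 15.1, 16.1 and 16.5% in 5xFAD. In such bulk samples fewer microglia and less microglial RNA per cell cannot be told apart, and the part that other cells take in the differences below was not tested. The sex labels did not match every library: transcripts of 4 Y-linked genes summed, without TMM scaling, to 307, 275 and 278 CPM in WT, to 4.63, 149 and 40.8 in IRF8KO, and to 0, 0 and 156 in 5xFAD. Xist, the X-inactivation transcript, stood at 48.6, 5.26 and 184 CPM in IRF8KO on the same scale, so these libraries held both kinds of transcript.

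**Figure D1:**
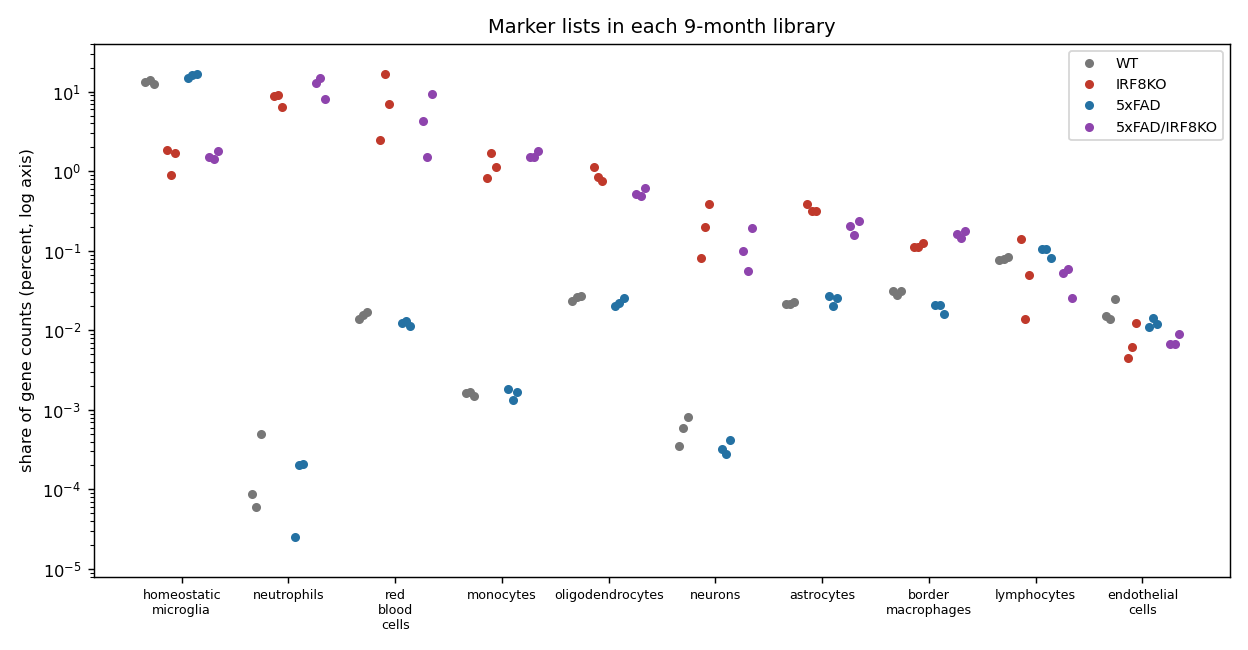
Share of all gene counts (percent, log axis) taken by 10 marker lists in each of the 12 libraries at 9 months; each point is a library and colours are groups. Neutrophil, red blood cell, monocyte, oligodendrocyte, neuron and astrocyte lists lie higher in IRF8KO and 5xFAD/IRF8KO than in WT and 5xFAD, and the homeostatic microglia list lies lower.

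The targeted gene was checked first. Irf8 (chromosome 8) read 140.3, 16.6 and 75.6 CPM in IRF8KO, 738, 599 and 563 in 5xFAD and 678, 646 and 584 in WT (log2 difference -3.03 ± 0.54 (SE), edgeR adjusted p = 0.00156 for IRF8KO against 5xFAD). Every IRF8KO library lay below every WT and 5xFAD library, yet none was at 0, and the 5xFAD/IRF8KO libraries read 99.4, 79.6 and 95.3 CPM. The sources used here do not say which part of Irf8 is deleted, so counts from outside it would not check the knockout. Batf3, which encodes a DNA-binding partner of IRF8, had 0 counts in all 3 IRF8KO libraries and 28.1, 24.4 and 27.3 CPM in 5xFAD. With the IRF8KO group set at 3 counts in all, Batf3 was at least 196-fold higher in 5xFAD.

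Among the 9361 genes that reached 5 CPM in WT, 861 were higher in IRF8KO and 1264 were higher in 5xFAD at an edgeR adjusted p under 0.05. That is 9.20% and 13.5% of them, where 29.5% of all 14604 genes tested were called, 19.0% and 10.5% in those directions. The 5 CPM rule sets part of this balance, since genes seen only in IRF8KO libraries stay out: of the 4856 tested genes below 5 CPM in both WT and 5xFAD, 1875 were called higher in IRF8KO and 240 lower. The median log2 difference was -0.26 over the genes at 5 CPM in WT and 0.19 over all genes tested. The counts also rested on each 5xFAD library. Without replicate 1 of 5xFAD 544 and 743 genes were called, without replicate 2 430 and 794, and without replicate 3 440 and 939. IRF8KO libraries varied more: the median SD of log2(CPM + 1) over the genes was 0.775 in IRF8KO, 0.270 in 5xFAD and 0.269 in WT.

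Each condition was also set against WT. These comparisons reuse the IRF8KO or 5xFAD libraries that chose the genes, as well as the same 3 WT libraries, so agreement is partly built in and the counts are a description. Of the 1264 genes higher in 5xFAD, 818 were called below WT in IRF8KO (8.68% of all genes tested were), and 60 were called above WT in 5xFAD (1.81% of all genes tested were). Of the 861 genes higher in IRF8KO, 559 were called above WT in IRF8KO (19.6% of all genes tested were) and 46 in 5xFAD. Over all genes tested, 28.3% were called between IRF8KO and WT and 1.99% between 5xFAD and WT. Calls of 5xFAD against WT, 253 higher and 26 lower among the genes at 5 CPM in WT, depended on each library, with 2 to 5 called higher without any 1 of the WT libraries and 2 to 86 without any 1 of the 5xFAD libraries. They also depended on the model, in which all 12 libraries share an estimate of the spread. With only the 2 groups compared, 1986 of these genes were higher and 2318 lower in 5xFAD than in WT. The same setting gave 1033 higher and 911 lower in IRF8KO than in WT. The numbers of calls thus do not rank the 2 conditions by size of change.

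The largest differences lay outside the reactive lists described below. The 8 protein-coding genes with the largest rise in IRF8KO whose libraries did not overlap were Hbb-bs, Cpe, Gpm6b, Aldoc, Bpgm, Iqgap1, Mbp and Trim12a. Hbb-bs and Bpgm are themselves members of the red blood cell list above, Mbp (myelin) of the oligodendrocyte list and Aldoc of the astrocyte list. Mbp read 9168, 7256 and 4160.4 CPM in IRF8KO and 36.4, 29.7 and 88.7 in 5xFAD (log2 difference 7.07 ± 0.50 (SE), edgeR adjusted p = 2.86e-06). Iqgap1, a scaffold of the actin cytoskeleton, read 313, 226 and 246 CPM in IRF8KO and 2.00, 0.939 and 3.10 in 5xFAD. Among genes higher in 5xFAD, those with the largest fall had 0 counts in IRF8KO and included Spint1, Chst7, Mmp2, P3h2, Nectin2, Eng and Mymk. Spint1, a membrane inhibitor of serine proteases, stood at 255, 256 and 23.2 CPM in 5xFAD, with replicate 3 far below the other two, and was at least 1307-fold higher than in IRF8KO. With limma voom and quality weights the Spint1 call was lost (adjusted p = 0.135). P3h2, a collagen prolyl hydroxylase, was at least 469-fold higher, and Eng, a TGF-beta co-receptor, at least 384-fold. In all, 100 genes at 5 CPM in WT had 0 counts in IRF8KO, and 39 of the 100 had 0 counts in 5xFAD/IRF8KO too. Of the 100, 97 were called, where 29.5% of all genes tested and 22.7% of the 9361 at 5 CPM in WT were. Genes picked for 0 counts in IRF8KO are nearly bound to be called, so the 97 are a description. No gene at 5 CPM in WT had 0 counts in 5xFAD.

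The reactive state was then read through 12 gene lists (early and late disease-associated genes, interferon-stimulated genes, MHC class I and II presentation, lipid handling, chemokines and cytokines, Trem2 signalling and uptake receptors, secreted growth factors, lysosome, iron and redox, complement). They hold 215 genes, of which 159 reached 5 CPM in WT, 18 reached it in 5xFAD alone, and 26 tested genes were below it in both. Of the 159, 16 were higher in IRF8KO, 70 were higher in 5xFAD and 73 did not pass the test. Among all genes tested, 19.0% and 10.5% were called in those directions, and among the 9361 genes at 5 CPM in WT 9.20% and 13.5%. The median log2 difference of the 159 was -1.10, against 0.19 over all genes tested and -0.26 over the 9361. The 16 shrank to 9 without replicate 2 of IRF8KO, to 10 without replicate 1 of 5xFAD and to 9 without replicate 2 of 5xFAD, while the 70 ranged from 54 to 72 over the 14 alternatives.

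**Figure D2:**
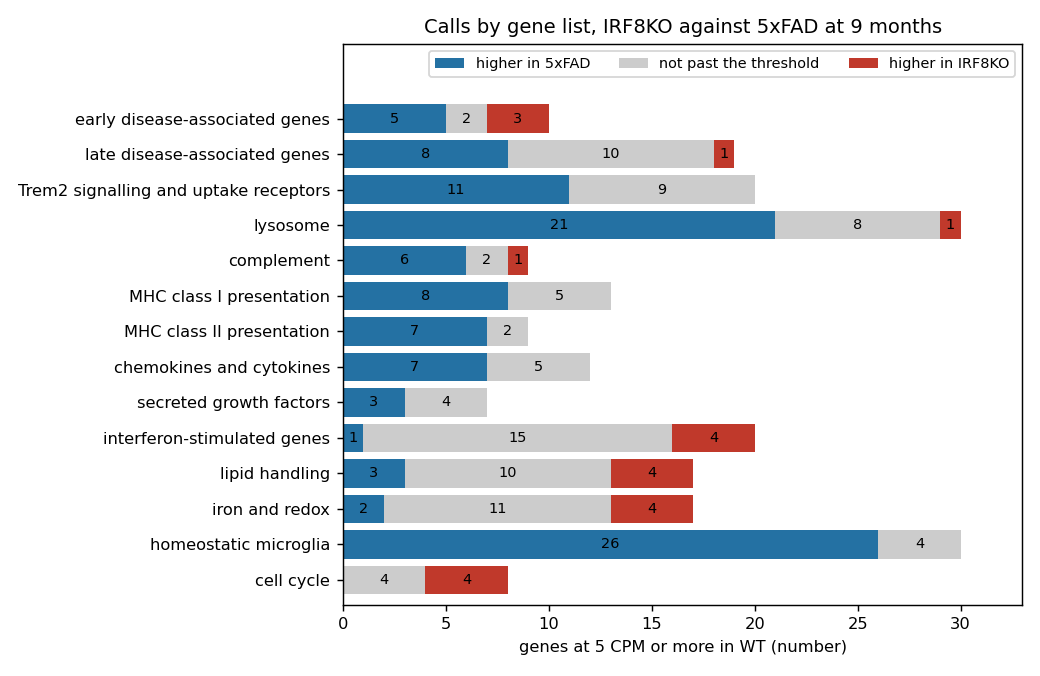
Number of genes at 5 CPM or more in WT in 14 gene lists, split into those higher in 5xFAD, not past the threshold and higher in IRF8KO (edgeR adjusted p under 0.05). Lysosome (21 of 30) and homeostatic genes (26 of 30) were mostly higher in 5xFAD, and 4 genes each of the interferon, lipid, iron and redox, and cell cycle lists were higher in IRF8KO. Over all genes tested, 10.5% were higher in 5xFAD and 19.0% in IRF8KO.

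Of the 10 early disease-associated genes, all at 5 CPM in WT, 3 were higher in IRF8KO and 5 in 5xFAD (median log2 difference -1.07). All genes tested gave 19.0% and 10.5% in those directions, and the genes at 5 CPM in WT 9.20% and 13.5%. Apoe, the main lipid carrier of the brain, read 42864, 27090.5 and 32988 CPM in IRF8KO, 4513, 5273 and 9143 in 5xFAD and 398, 476 and 321 in WT. All IRF8KO libraries stood above all 5xFAD libraries, and both groups stood above WT. Apoe was 5.44-fold higher in IRF8KO (log2 difference 2.44 ± 0.34 (SE), edgeR adjusted p = 0.000249). Astrocytes also make Apoe, and their marker list was higher in IRF8KO as given above. Lyz2, the lysozyme of macrophages, monocytes and neutrophils, read 21609, 20550.3 and 9711 CPM in IRF8KO, 1192, 1415 and 1929 in 5xFAD and 199, 245 and 121 in WT. Its order across groups was the same as for Apoe, with IRF8KO 11.4-fold above 5xFAD (log2 difference 3.52 ± 0.41 (SE), edgeR adjusted p = 7.27e-05). Neutrophil genes were at 8.18% ± 1.44 of counts in the same IRF8KO libraries. Fth1, the ferritin heavy chain that stores iron, read 5477, 4876 and 3868 CPM in IRF8KO and 2899, 2992 and 2983 in 5xFAD and was 1.60-fold higher in IRF8KO (edgeR adjusted p = 0.0306). That call was lost in 8 of 14 alternatives, among them the omission of any 1 of the 5xFAD libraries and of IRF8KO replicates 1 or 2, with adjusted p values up to 0.111.

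The other early genes went the opposite way. Tyrobp, the adaptor through which TREM2 signals, read 2821, 1663 and 1454 CPM in IRF8KO, 4549, 7085 and 7225 in 5xFAD and 1453, 1735 and 1226 in WT. The 5xFAD libraries lay above all others, while IRF8KO and WT overlapped. Tyrobp was 3.18-fold higher in 5xFAD (log2 difference -1.67 ± 0.30 (SE), edgeR adjusted p = 0.00162). Ctsd, a lysosomal aspartic protease, read 4455, 1789 and 2937 CPM in IRF8KO, 17425, 17410.5 and 15996 in 5xFAD and 7374, 7614 and 5574 in WT. Here every IRF8KO library lay below WT and every 5xFAD library above it, with no overlap among the 3 groups, and 5xFAD was 5.54-fold above IRF8KO (edgeR adjusted p = 0.000132). Ctsb, a cysteine protease of the same compartment, had the same order (2690.4, 1498 and 1659 CPM in IRF8KO and 9077, 8563 and 10413 in 5xFAD; log2 difference -2.26 ± 0.26 (SE), edgeR adjusted p = 5.92e-05). B2m, the light chain of MHC class I, was 2.87-fold higher in 5xFAD, with 2002, 1717 and 1606 CPM in IRF8KO and 4239.7, 5372 and 5673 in 5xFAD and 2034, 2073 and 1799.5 in WT. Timp2, an inhibitor of metalloproteases, was 3.89-fold higher in 5xFAD, where it stood near WT (859.9, 758 and 949.8 CPM in 5xFAD, 748, 679 and 692 in WT), and fell to 287, 178 and 194 in IRF8KO. Cstb (log2 difference -0.62 ± 0.35) and H2-D1 (0.18 ± 0.38) did not pass the test.

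**Figure D3:**
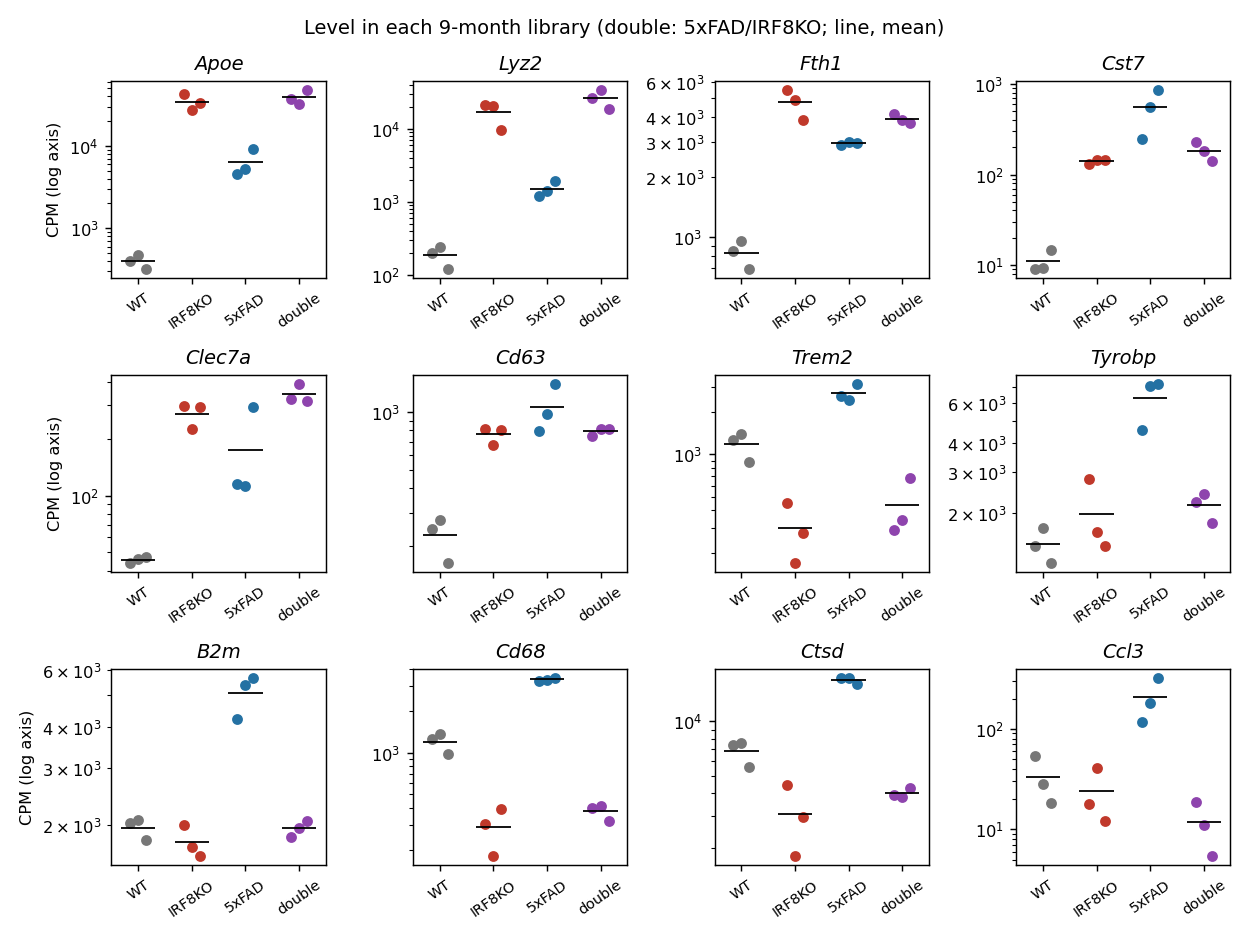
CPM (log axis) of 12 reactive-state genes in each 9-month library; points are libraries, lines are means, and double stands for 5xFAD/IRF8KO. Apoe, Lyz2 and Fth1 lie highest where IRF8 is missing, and Trem2, Tyrobp, B2m, Cd68, Ctsd and Ccl3 lie highest in 5xFAD.

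The late disease-associated list had 19 of 28 genes at 5 CPM in WT, of which 1 was higher in IRF8KO, 8 in 5xFAD and 10 did not pass the test (median -1.53). In those directions 19.0% and 10.5% of all genes tested were called, and 9.20% and 13.5% of those at 5 CPM in WT. Cst7, which encodes the protease inhibitor cystatin F and is a hallmark of the late step, read 131, 146 and 145 CPM in IRF8KO, 246, 566 and 863 in 5xFAD and 9.03, 9.20 and 14.5 in WT. It was above WT in every library of both conditions, and every 5xFAD library exceeded every IRF8KO library. Cst7 was 3.96-fold higher in 5xFAD (log2 difference -1.99 ± 0.39 (SE), edgeR adjusted p = 0.00273). Trem2, the lipid-sensing receptor itself, read 453, 170.3 and 277 CPM in IRF8KO, 2577, 2425 and 3161 in 5xFAD and 1265, 1393 and 886 in WT. Its libraries separated into 3 tiers with IRF8KO lowest and 5xFAD highest, a 9.06-fold difference (log2 difference -3.18 ± 0.42 (SE), edgeR adjusted p = 0.000162). Cd68, a lysosomal glycoprotein of phagocytes, read 304, 179 and 392.4 CPM in IRF8KO and 3281, 3308 and 3455 in 5xFAD, 11.5-fold higher in 5xFAD (edgeR adjusted p = 8.48e-06). The cathepsins Ctsz (10.7-fold), Ctsl (5.96-fold) and Ctsa, the tetraspanin Cd9 (3.65-fold) and the glycosidase Gusb were the other late genes higher in 5xFAD. Cd9 in IRF8KO lay just below WT, at 693, 605 and 536 CPM against 813, 957 and 726. The gene higher in IRF8KO was Cd52, a small surface glycoprotein of leukocytes, with 688, 664 and 291 CPM in IRF8KO and 190.3, 199 and 326 in 5xFAD. Its groups overlapped through IRF8KO replicate 3, and the call (log2 difference 1.20 ± 0.37, edgeR adjusted p = 0.0278) was lost in 7 of 14 alternatives, among them the omission of replicate 1 or 2 of either group (adjusted p up to 0.120).

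Of the 10 late genes not separated, Clec7a, Cd63 and Ccl6 were called above WT in both conditions. Clec7a, the beta-glucan receptor dectin-1, read 296, 224 and 295 CPM in IRF8KO, 115, 112 and 294 in 5xFAD and 44.1, 46.0 and 47.3 in WT. Replicate 3 of 5xFAD reached the IRF8KO range and the other two did not. Its log2 difference was 0.65 ± 0.34 (edgeR adjusted p = 0.171), and without 5xFAD replicate 3 it was 1.18 in favour of IRF8KO (adjusted p = 0.0104). Cd63, a tetraspanin of late endosomes, read 813, 673 and 808 CPM in IRF8KO, 792, 977 and 1397 in 5xFAD and 246, 275 and 165 in WT and differed by -0.46 ± 0.26 (edgeR adjusted p = 0.198). Ccl6, a chemokine, read 1349, 516 and 388 CPM in IRF8KO and 809, 1308 and 1816 in 5xFAD, a difference of -0.80 ± 0.53, and without IRF8KO replicate 1 it was -1.61 in favour of 5xFAD (edgeR adjusted p = 0.0392). Lpl, the lipoprotein lipase, differed by -0.07 ± 0.65 and Csf1, a growth factor of macrophages, by 0.57 ± 0.58. Axl, a receptor for dying cells, ranged widely within IRF8KO (64.9, 3.51 and 14.8 CPM) against 96.8, 57.3 and 123 in 5xFAD, and its difference of -1.73 ± 1.49 did not pass the test. Itgax, the integrin CD11c, was low in all libraries, at 0, 1.37 and 0 CPM in IRF8KO and 8.44, 4.51 and 8.77 in 5xFAD, with a difference of -3.96 ± 1.99 (edgeR adjusted p = 0.156).

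**Figure D4:**
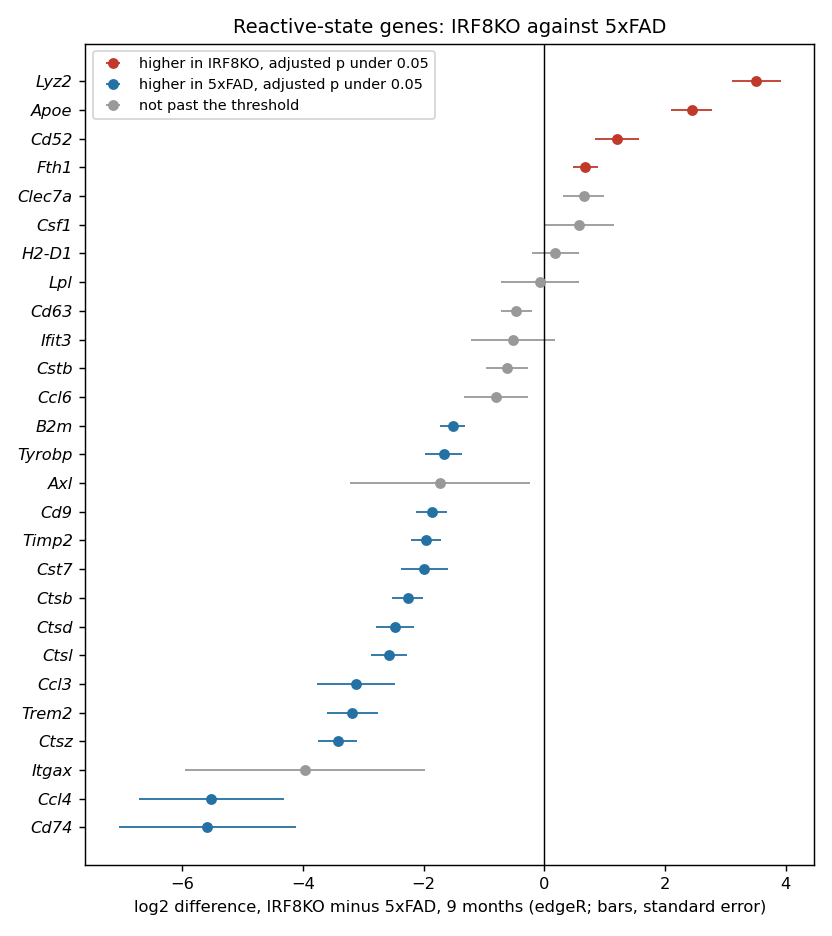
Log2 difference between IRF8KO and 5xFAD at 9 months for 27 reactive-state genes at 5 CPM or more in WT; points are edgeR estimates and bars are standard errors. Lyz2, Apoe, Cd52 and Fth1 lie to the right (higher in IRF8KO), and Cst7, Trem2, the cathepsins, Ccl3, Ccl4 and Cd74 lie to the left.

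Each condition's own change from WT is given side by side, with the same 3 WT libraries in both. For Apoe the log2 change was 6.43 in IRF8KO and 3.98 in 5xFAD. For Cst7 it was 3.75 and 5.73. Clec7a changed by 2.57 and 1.92, and Cd63 by 1.74 and 2.20, all past the edgeR threshold. For Trem2 the values were -1.98 (edgeR adjusted p = 0.00322) and 1.20 (adjusted p = 0.179). Cd9 was at -0.44 (edgeR adjusted p = 0.206) in IRF8KO and 1.42 (adjusted p = 0.0193) in 5xFAD. As a description, since the direct contrast that chose these genes used the same IRF8KO and 5xFAD libraries, 48 of the 70 reactive-list genes higher in 5xFAD were called below WT in IRF8KO (8.68% of all genes tested were) and 12 above WT in 5xFAD (1.81%). Of the 16 higher in IRF8KO, 15 were called above WT in IRF8KO (19.6% of all genes tested were) and 6 in 5xFAD (1.81%). Calls of 5xFAD against WT shifted with the model, as given above, so the 12 does not count every gene above WT in 5xFAD. Trem2 and Ctsd missed the threshold there, though for each gene every 5xFAD library lay above every WT library.

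**Figure D5:**
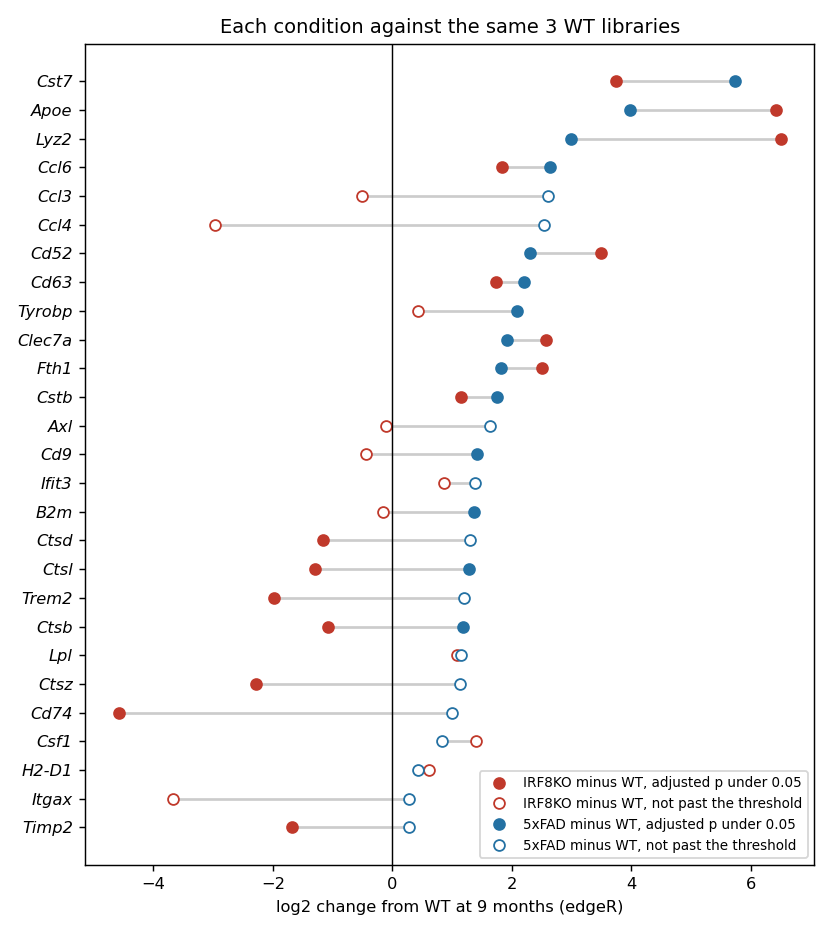
Log2 change from WT in IRF8KO (red) and in 5xFAD (blue) for 27 reactive-state genes; filled points passed an edgeR adjusted p of 0.05 and a line joins the 2 values of a gene. Apoe and Lyz2 changed more in IRF8KO, Cst7 more in 5xFAD, and Trem2, Ctsb, Ctsd, Ctsl and Ctsz stood on opposite sides of WT.

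Trem2 signalling and uptake receptors gave 11 of 20 genes higher in 5xFAD and 0 higher in IRF8KO (median -1.72), with 1 higher in IRF8KO when 5xFAD replicate 3 was left out. By comparison, 10.5% of all genes tested and 13.5% of those at 5 CPM in WT were higher in 5xFAD. The Fc receptors, which bind antibody-coated targets, were among the 11. Fcgr1 read 36.5, 10.1 and 31.3 CPM in IRF8KO and 564, 604 and 609.8 in 5xFAD (log2 difference -4.51 ± 0.56 (SE), edgeR adjusted p = 0.000111). Fcgr3 was 5.71-fold and Fcgr2b 5.05-fold higher in 5xFAD. Stab1, a scavenger receptor, was higher in 5xFAD (log2 difference -1.08 ± 0.32), and that call was lost in 6 of 14 alternatives, among them the omission of IRF8KO replicate 2 and of 5xFAD replicates 1 or 2 (adjusted p up to 0.118). Of the signalling genes, the kinase Syk, the phospholipase Plcg2 and the inositol phosphatase Inpp5d did not pass the test.

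Lysosomal genes formed the largest group of one direction among the 12 lists: 21 of 30 were higher in 5xFAD, 1 was higher in IRF8KO and 8 did not pass the test (median -1.77), and over the 14 alternatives 19 to 22 were higher in 5xFAD. Over all genes tested 10.5% were higher in 5xFAD, and among those at 5 CPM in WT 13.5%. Ctss, the cathepsin that also trims MHC class II ligands, read 2040.5, 1550.2 and 1554 CPM in IRF8KO, 13123, 12232 and 14456 in 5xFAD and 7299, 7988 and 6479 in WT (log2 difference -2.95 ± 0.23 (SE), edgeR adjusted p = 5.09e-06). Ctsh, an aminopeptidase, had the largest difference of the list, 17.8-fold, at 122, 194 and 48.7 CPM in IRF8KO and 2089.7, 2324 and 2077 in 5xFAD. Grn, the precursor of progranulin, differed by 2.66-fold, but its 5xFAD libraries (2655, 1969 and 1263 CPM) overlapped WT (2517, 1590.0 and 2428). The gene higher in IRF8KO was Atp6v1a, the catalytic subunit of the proton pump, with 174, 338 and 272 CPM in IRF8KO and 70.7, 54.7 and 73.8 in 5xFAD (log2 difference 1.98 ± 0.28 (SE), edgeR adjusted p = 0.000279). Tfeb and Mitf, transcription factors of lysosome genes, did not pass the test.

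Complement genes gave 6 of 9 higher in 5xFAD and 1 higher in IRF8KO (median -1.54). All genes tested gave 10.5% and 19.0% in those directions, and the genes at 5 CPM in WT 13.5% and 9.20%. The 3 chains of C1q, which tags synapses and debris, were all among the 6. C1qb read 1292, 607 and 539 CPM in IRF8KO, 12521, 11186 and 12825 in 5xFAD and 6200.0, 7010.2 and 4355 in WT (log2 difference -3.91 ± 0.39 (SE), edgeR adjusted p = 2.21e-05), C1qc was 11.1-fold and C1qa 10.3-fold higher in 5xFAD. C5ar1, the receptor for C5a on microglia and neutrophils, was higher in IRF8KO (1060.1, 614 and 380.5 CPM in IRF8KO and 418, 268 and 295 in 5xFAD; log2 difference 1.07 ± 0.36). The groups overlapped through IRF8KO replicate 3, and the call was lost in 7 of 14 alternatives, among them the omission of any 1 of the 5xFAD libraries and of IRF8KO replicates 1 or 2 (adjusted p up to 0.225).

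Antigen presentation genes that passed the test were all higher in 5xFAD. Of 9 MHC class II genes, 7 were higher in 5xFAD (median -5.56), against 10.5% of all genes tested and 13.5% of those at 5 CPM in WT. The 7 fell to 5 with limma voom and quality weights, without IRF8KO replicate 1 and without 5xFAD replicate 2. The calls of H2-Oa and H2-Ob were each lost in 5 of 14 alternatives (adjusted p up to 0.0794 and 0.0921). Cd74, the invariant chain, read 1.05, 7.18 and 3.96 CPM in IRF8KO, 221, 165 and 199 in 5xFAD and 70.4, 123 and 98.2 in WT (log2 difference -5.59 ± 1.47 (SE), edgeR adjusted p = 0.0138); with limma voom and quality weights its adjusted p was 0.0829. H2-Ab1, a class II beta chain, read 2.74, 0.458 and 0 CPM in IRF8KO and 48.4, 79.1 and 75.8 in 5xFAD, with no overlap (log2 difference -5.96 ± 1.16). H2-Aa had 1 count over the 3 IRF8KO libraries, and its ratio of 5xFAD to IRF8KO was 360.2 with a 95% exact counting interval of 64.2 to 14274, which covers counting error only. In 5xFAD/IRF8KO H2-Aa was at 10.3, 13.4 and 16.3 CPM, within the 5xFAD range of 9.80, 31.4 and 12.4. Against the same shares of 10.5% and 13.5%, 8 of 13 MHC class I genes were higher in 5xFAD and 5 did not pass the test (median -1.05). Psmb8, a subunit of the immunoproteasome, read 77.6, 69.8 and 54.7 CPM in IRF8KO and 212, 212 and 239 in 5xFAD (log2 difference -1.71 ± 0.28 (SE), edgeR adjusted p = 0.000801). The class I heavy chain H2-K1 differed by -0.85 ± 0.28, a call lost in 9 of 14 alternatives, DESeq2-type scaling and the omission of any 1 library but IRF8KO replicate 1 among them (adjusted p up to 0.110). H2-Q6, with the largest difference of the list (0.784, 0 and 0 CPM in IRF8KO and 16.3, 7.14 and 15.5 in 5xFAD), lost its call with the same libraries left out (adjusted p up to 0.0768). The class I count fell to 3 without 5xFAD replicate 1, to 4 without 5xFAD replicate 3 and to 5 without 5xFAD replicate 2, IRF8KO replicate 2 or IRF8KO replicate 3.

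Chemokines and cytokines gave 7 of 12 genes higher in 5xFAD and 0 in IRF8KO (median -2.63), and 4 of 12 without 5xFAD replicate 1. The shares higher in 5xFAD were 10.5% over all genes tested and 13.5% among those at 5 CPM in WT. Ccl3, a chemokine of activated macrophages, read 18.0, 41.2 and 12.1 CPM in IRF8KO, 117, 179 and 325 in 5xFAD and 53.6, 28.1 and 18.2 in WT. IRF8KO overlapped WT, and 5xFAD was 8.68-fold above IRF8KO (log2 difference -3.12 ± 0.64 (SE), edgeR adjusted p = 0.00376). Ccl4, a related chemokine, read 2.22, 0 and 14.3 CPM in IRF8KO and 183, 219 and 363 in 5xFAD, and Ccl9 and Ccl12 read 4.31, 0 and 12.5 and 15.2, 11.6 and 10.3 in IRF8KO against 199, 264 and 258 and 176, 506 and 359 in 5xFAD. The other members higher in 5xFAD were Ccl2, Cxcl16 and Il18, which was at 62.5, 69.1 and 53.1 CPM in 5xFAD and 12, 10.7 and 18.8 in IRF8KO. Without 5xFAD replicate 1 the calls of Ccl2, Cxcl16 and Il18 were lost (edgeR adjusted p up to 0.146, 0.0536 and 0.0651). The Il18 call was also lost without 5xFAD replicate 2, and the Ccl2 call without IRF8KO replicate 1 or 5xFAD replicates 2 or 3. Of 7 secreted growth factors, Pdgfb, Tgfb1 and Grn were higher in 5xFAD, Pdgfb not so without IRF8KO replicate 2 or 5xFAD replicate 1 (edgeR adjusted p up to 0.0519). Pdgfb, a growth factor of pericytes, stood at 1.83, 0.305 and 3.58 CPM in IRF8KO and 50.3, 46.8 and 38.7 in 5xFAD. Tgfb1, the cytokine that keeps the microglial identity, read 11.9, 9.47 and 15.6 CPM in IRF8KO, 145, 109 and 80.5 in 5xFAD and 166, 144 and 166 in WT (log2 difference -3.18 ± 0.49 (SE), edgeR adjusted p = 0.000485), with IRF8KO below every WT library and 2 of the 5xFAD libraries below WT too.

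Interferon-stimulated genes mostly did not pass the test. Of 20 at 5 CPM in WT, 4 were higher in IRF8KO, 1 was higher in 5xFAD and 15 did not pass (median -0.11). Among all genes tested, 19.0% and 10.5% were called in those directions, and among the genes at 5 CPM in WT 9.20% and 13.5%. The 4 were Sp100, Slfn2, Ifitm3 and Ddx58. Sp100, a nuclear body protein, read 213, 159 and 97.4 CPM in IRF8KO and 24.1, 12.4 and 16.5 in 5xFAD (log2 difference 3.14 ± 0.43 (SE), edgeR adjusted p = 0.000233). Slfn2, a schlafen family member, read 731, 458 and 341 CPM in IRF8KO and 79.2, 75.5 and 69.7 in 5xFAD and Ifitm3, a membrane protein that blocks virus entry, 261, 350.2 and 186 CPM in IRF8KO and 53.2, 52.0 and 62.9 in 5xFAD, both without overlap. Neutrophil and monocyte lists were higher in the same libraries, and Sp100, Slfn2 and the H2 genes belong to families of near-identical copies among which reads may be split. Ddx58, the RNA sensor RIG-I, read 33.6, 80.8 and 51.9 CPM in IRF8KO and 27.7, 18.0 and 13.4 in 5xFAD, and its call was lost in 5 of 14 alternatives, among them the omission of IRF8KO replicate 2 and of 5xFAD replicates 2 or 3 (adjusted p up to 0.108). Bst2, the tetherin that holds virions on the membrane, was higher in 5xFAD (67.6, 42.0 and 51.6 CPM in IRF8KO and 94.4, 127 and 126 in 5xFAD; edgeR adjusted p = 0.0238), a call lost in 5 alternatives, among them the omission of IRF8KO replicate 3 and of 5xFAD replicates 2 or 3 (adjusted p up to 0.122). Ifit3 (34.4, 4.73 and 17.8 CPM in IRF8KO and 31.1, 23.9 and 26.3 in 5xFAD) and Irf7 did not pass the test.

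The upstream sequences of 5 of these genes are shown because each holds letters of a motif bound by the missing factor or its family: B2m and Ctss, which were higher in 5xFAD, Slfn2 and Sp100, which were higher in IRF8KO, and Clec7a, which was not separated. The composite motif of PU.1 and IRF8 was searched as GGAA, any 2 bases and GAAA, and the interferon response motif as GAAA, any 2 bases and GAAA, on both strands, in the 250 bases before the transcription start (RefSeq windows, build GRCm38.p6); the 2 patterns share the letters GAAA and can overlap. Capitals mark the match, 5' to 3' on the gene's strand.
B2m, chr2:122147437-122147686, plus strand: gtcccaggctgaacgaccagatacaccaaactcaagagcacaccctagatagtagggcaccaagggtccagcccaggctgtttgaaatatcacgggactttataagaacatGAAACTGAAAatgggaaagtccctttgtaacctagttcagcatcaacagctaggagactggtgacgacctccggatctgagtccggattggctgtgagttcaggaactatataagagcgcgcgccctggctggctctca
Ctss, chr3:95526536-95526785, plus strand: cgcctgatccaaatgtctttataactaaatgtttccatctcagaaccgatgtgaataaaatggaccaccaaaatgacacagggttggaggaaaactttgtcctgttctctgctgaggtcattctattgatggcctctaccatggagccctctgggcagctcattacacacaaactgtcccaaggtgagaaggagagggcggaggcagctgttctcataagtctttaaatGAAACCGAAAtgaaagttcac
Slfn2, chr11:83064862-83065111, plus strand: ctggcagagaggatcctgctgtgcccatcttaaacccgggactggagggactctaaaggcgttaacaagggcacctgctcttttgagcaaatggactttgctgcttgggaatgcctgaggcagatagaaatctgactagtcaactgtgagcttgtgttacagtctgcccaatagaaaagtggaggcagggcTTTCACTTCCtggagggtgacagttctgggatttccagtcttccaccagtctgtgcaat
Sp100, chr1:85649738-85649987, plus strand: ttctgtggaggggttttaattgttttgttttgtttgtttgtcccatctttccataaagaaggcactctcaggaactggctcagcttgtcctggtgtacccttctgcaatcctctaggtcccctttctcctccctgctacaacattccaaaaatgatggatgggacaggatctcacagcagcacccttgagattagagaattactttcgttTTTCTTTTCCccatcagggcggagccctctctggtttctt
Clec7a, chr6:129472780-129473029, minus strand: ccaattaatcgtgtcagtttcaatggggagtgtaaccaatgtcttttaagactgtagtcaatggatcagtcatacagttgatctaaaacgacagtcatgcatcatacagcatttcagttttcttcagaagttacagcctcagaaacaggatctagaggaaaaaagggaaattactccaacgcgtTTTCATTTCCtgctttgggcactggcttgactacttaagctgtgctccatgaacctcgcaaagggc
B2m and Ctss carry the interferon pattern as written, and Slfn2, Sp100 and Clec7a carry the composite pattern as its reverse complement. Of 27025 genes with such windows, 2.68% hold the composite pattern and 3.46% the interferon pattern. A match is a description of letters only. Windows were found for 7476 of the 9361 genes at 5 CPM in WT (79.9%), too few to compare shares between gene sets, and that check is void.

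Lipid handling gave 4 of 17 genes higher in IRF8KO and 3 higher in 5xFAD (median -0.60). Among all genes tested, 19.0% and 10.5% were called in those directions, and among the genes at 5 CPM in WT 9.20% and 13.5%. Scd2, a fatty acid desaturase, read 398, 736 and 458 CPM in IRF8KO, 41.3, 25.5 and 28.9 in 5xFAD and 68.2, 39.7 and 66.6 in WT. Every IRF8KO library stood above WT, and IRF8KO was 16.6-fold above 5xFAD (log2 difference 4.05 ± 0.40 (SE), edgeR adjusted p = 2.27e-05). Scd2 is also a gene of oligodendrocytes, whose list was higher in IRF8KO. Plin2, which coats lipid droplets, read 223, 184 and 86.5 CPM in IRF8KO and 91.4, 77.6 and 88.2 in 5xFAD, and Soat1, which esterifies cholesterol for storage, 112, 166 and 102 CPM in IRF8KO and 73.8, 62.4 and 64.0 in 5xFAD. The calls of Plin2 and Soat1 were lost in 10 and 6 of 14 alternatives, among them the omission of any 1 of the 5xFAD libraries or of IRF8KO replicate 2 and, for Plin2, IRF8KO replicate 1 (adjusted p up to 0.169 and 0.147). With IRF8KO replicate 2 or any 1 of the 5xFAD libraries left out, 2 lipid genes were higher in IRF8KO. Higher in 5xFAD were Npc2, which carries cholesterol out of lysosomes (4.42-fold; 220.3, 247 and 182 CPM in IRF8KO and 817, 923 and 1127 in 5xFAD), the lipoprotein receptor Lrp1 and the sterol hydroxylase Cyp27a1, the last not so without IRF8KO replicate 1 or any 1 of the 5xFAD libraries (edgeR adjusted p up to 0.102). Cyp27a1 read 3.92, 28.9 and 0 CPM in IRF8KO and 152, 160.0 and 120.2 in 5xFAD. The Lrp1 difference of -2.51 ± 0.56 came with levels below WT in both groups (8.10, 27.3 and 27.9 CPM in IRF8KO, 109, 152 and 99.1 in 5xFAD and 303, 308 and 380.5 in WT). Abca1, the cholesterol exporter, did not pass the test (0.04 ± 0.28).

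Iron and redox genes gave 4 of 17 higher in IRF8KO and 2 in 5xFAD, with a median of 0.30. All genes tested gave 19.0%, 10.5% and a median of 0.19. The genes at 5 CPM in WT, from which the 17 come, gave 9.20%, 13.5% and -0.26. Prdx5, a peroxidase, read 921, 657 and 546 CPM in IRF8KO, 169, 188 and 209 in 5xFAD and 84.9, 90.0 and 87.2 in WT (log2 difference 1.91 ± 0.24 (SE), edgeR adjusted p = 0.000107). Gclm, a subunit of the enzyme that starts glutathione synthesis, read 78.9, 169 and 50.5 CPM in IRF8KO and 22.4, 16.9 and 13.9 in 5xFAD, 5.57-fold higher in IRF8KO. Ncf4, a subunit of the phagocyte oxidase that neutrophils express too, was higher in IRF8KO (339, 347 and 214 CPM in IRF8KO and 190.1, 160.4 and 157 in 5xFAD), and its call was lost in 8 alternatives, among them the omission of any 1 of the 5xFAD libraries and of IRF8KO replicates 1 or 2 (edgeR adjusted p up to 0.158). With IRF8KO replicate 2 or any 1 of the 5xFAD libraries left out, 2 iron and redox genes were higher in IRF8KO. Cyba, another subunit of the same oxidase, and the metal transporter Slc11a1 were higher in 5xFAD. Cyba read 899, 704 and 513 CPM in IRF8KO and 1156, 1385 and 1307 in 5xFAD (log2 difference -0.86 ± 0.23 (SE), edgeR adjusted p = 0.0159), a call lost without 5xFAD replicate 2 (adjusted p up to 0.0680). Slc11a1 read 149, 131 and 134 CPM in IRF8KO and 549, 453 and 384 in 5xFAD (log2 difference -1.74 ± 0.25). Ftl1, the ferritin light chain, did not pass the test (-0.38 ± 0.37).

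Outside the reactive lists, homeostatic microglia genes were mostly higher in 5xFAD. Of 30, all at 5 CPM in WT, 26 were higher in 5xFAD and 4 did not pass the test (median -3.29), and 23 to 27 were higher in 5xFAD over the 14 alternatives. Over all genes tested 10.5% were higher in 5xFAD, and among those at 5 CPM in WT 13.5%. P2ry12, the purinergic receptor of resting microglia, read 245, 147 and 367 CPM in IRF8KO, 8571, 10000.2 and 9981 in 5xFAD and 9164, 9589.5 and 6436 in WT (log2 difference -5.23 ± 0.38 (SE), edgeR adjusted p = 3.37e-06). Tmem119, a surface marker of microglia, was 10.5-fold higher in 5xFAD. For both genes the 5xFAD libraries overlapped WT. Cx3cr1, the fractalkine receptor, read 1094, 395 and 568 CPM in IRF8KO, 4388, 2365 and 2368 in 5xFAD and 6094, 4763 and 4561 in WT, and 5xFAD was 4.43-fold above IRF8KO. Of the cell cycle genes, 4 of 8 at 5 CPM in WT were higher in IRF8KO and 0 in 5xFAD, and 2 were higher in IRF8KO without 5xFAD replicate 2 or 3, while 1 was higher in 5xFAD without IRF8KO replicate 1. The shares higher in IRF8KO were 19.0% over all genes tested and 9.20% among those at 5 CPM in WT. Hmgb2, a chromatin protein of dividing cells, read 484, 530.4 and 414 CPM in IRF8KO, 20.6, 17.8 and 25.3 in 5xFAD and 13.8, 13.6 and 9.69 in WT (log2 difference 4.49 ± 0.25 (SE), edgeR adjusted p = 6.48e-07). Another 15 genes of the 24 in that list were below 5 CPM in both WT and 5xFAD.

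The 389 genes that reached 5 CPM in 5xFAD alone were chosen by their 5xFAD level, so their values are given without a test. Among genes of the late programme, Lgals3, a galectin of phagocytes, read 660.4, 360.2 and 182 CPM in IRF8KO, 9.89, 9.20 and 21.7 in 5xFAD and 2.60, 2.42 and 2.42 in WT. IRF8KO lay far above 5xFAD and 5xFAD above WT. Fabp5, a fatty acid binding protein, read 46.1, 55.7 and 69.2 CPM in IRF8KO, 4.08, 4.13 and 13.9 in 5xFAD and 0.612, 1.94 and 0 in WT, and Spp1, osteopontin, 23.1, 97.7 and 72.7 CPM in IRF8KO, 6.44, 11.5 and 25.3 in 5xFAD and 2.60, 2.42 and 0 in WT; IRF8KO replicate 1 of Spp1 lay within the 5xFAD range. Igf1, a growth factor, read 3.14, 7.94 and 30.8 CPM in IRF8KO and 9.53, 9.58 and 48.0 in 5xFAD, with overlap between the groups. Ch25h, which makes 25-hydroxycholesterol, read 0, 15.9 and 20.6 CPM in IRF8KO and 19.1, 36.2 and 60.9 in 5xFAD, with IRF8KO replicate 1 at 0. Il1b, an inflammatory cytokine, read 58.3, 83.4 and 45.7 CPM in IRF8KO and 5.72, 12.2 and 31.0 in 5xFAD, higher in every IRF8KO library, and Ms4a7, a membrane protein of border macrophages and reactive microglia, 306, 233 and 209 CPM in IRF8KO and 3.36, 8.83 and 3.10 in 5xFAD.

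Of the same genes, the highest in 5xFAD were Xist, Hebp1, Ch25h and Wfdc17. Xist followed the sex-linked differences between libraries given above. Hebp1, which binds haem, read 1.31, 4.43 and 13.8 CPM in IRF8KO and 36.7, 43.2 and 67.1 in 5xFAD. Wfdc17, a secreted inhibitor of inflammation, is also on the border macrophage list. It had 0 counts in IRF8KO and 17.6, 34.0 and 44.4 CPM in 5xFAD. D5Ertd605e, Lbx2 and Baiap2l2, the others with the largest fall, also had 0 counts in IRF8KO. Baiap2l2, a late disease-associated gene, stood at 8.53, 5.07 and 18.6 CPM in 5xFAD. The largest rises in IRF8KO were Plekhb1, Anxa2, Slc2a3 and Gsn. Anxa2, a calcium-dependent membrane binder, read 1103, 730.0 and 372 CPM in IRF8KO, 3.54, 7.14 and 13.4 in 5xFAD and 0.459, 0.484 and 0 in WT, and Slc2a3, a glucose transporter that neutrophils also express, 629.5, 638 and 205 CPM in IRF8KO and 6.99, 7.51 and 2.58 in 5xFAD. Just inside the 5 CPM threshold were Mir22hg (5.00 CPM in 5xFAD), Cep72 (5.00 in WT) and Gm49474 (5.00 in WT), and just outside were Fam216a (5.00 in 5xFAD), Lrrc42 (4.99) and Rpia (4.99). Of the 26 reactive-list genes below 5 CPM in both WT and 5xFAD, the late disease-associated genes were Lilrb4a (163, 303 and 152 CPM in IRF8KO and 6.71, 2.82 and 5.16 in 5xFAD) and Gpnmb (0.39, 17.6 and 101 CPM in IRF8KO and 1.45, 0.939 and 2.58 in 5xFAD).

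In most of the called genes, libraries that lacked IRF8 and also met amyloid lay nearer to IRF8KO. Of the 861 genes higher in IRF8KO, the 5xFAD/IRF8KO mean lay nearer to the IRF8KO mean than to the 5xFAD mean, on log2(CPM + 0.5), for 807 (93.7%), and of the 1264 higher in 5xFAD for 948 (75.0%), where over all 9361 genes it did for 65.7%. These groups enter the rule or the contrast, so the shares are a description. Apoe read 36871, 32397 and 47610.2 CPM in 5xFAD/IRF8KO and Cst7 227, 183 and 142, which is below every 5xFAD library for Cst7. Trem2 read 291, 344 and 684 CPM and Cd68 396, 415 and 319.9, below WT in every library. Neutrophil genes took 12.8, 14.8 and 8.24% of counts in these libraries.

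At 3 months, other mice gave the knockout's change on separate WT libraries. Apoe was higher by 2.92 ± 0.60 on the log2 scale in IRF8KO (edgeR adjusted p = 0.0132), from a WT median of 6976 CPM (3244 to 10697) to 54008 (40989.7 to 62547). Clec7a rose by 2.93 ± 0.41 and Cst7 by 2.34 ± 0.45. Lpl fell by 2.25 ± 0.49 (edgeR adjusted p = 0.0180). Lgals3 (0.40 ± 0.47), Spp1 (1.07 ± 0.64) and Fabp5 (-1.46 ± 0.48) did not pass the test at this age. Of the 19 late disease-associated genes at 5 CPM in WT at 9 months, 3 were higher and 5 lower in IRF8KO (median -0.25). Trem2 fell by 1.93 ± 0.44 and Cd68 by 1.65 ± 0.43, whereas Ctsd (-0.14 ± 0.39) and Lyz2 (1.48 ± 0.71) did not pass the test. In this comparison 7.39% of 13121 genes tested were called, 4.15% higher and 3.24% lower in IRF8KO. The 3-month WT libraries themselves held 0.867% to 5.40% neutrophil and 0.183% to 1.20% astrocyte genes, and the IRF8KO libraries 7.73% to 16.6% and 0.104% to 0.640%. Astrocyte shares thus overlapped at that age, as did red blood cell, oligodendrocyte, neuron, lymphocyte and endothelial shares, and neutrophil shares did not. Border macrophage genes (0.0208% to 0.0424% in WT, 0.148% to 0.211% in IRF8KO) did not overlap either. Monocyte genes ran from 0.0662% to 0.327% in WT and from 0.724% to 1.61% in IRF8KO. Homeostatic genes were lower in IRF8KO (1.41% to 2.63%) than in WT (6.72% to 12.7%).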

How the data were processed

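Microglia from each brain were isolated without enzymes, sorted into TRIzol and sequenced from SMART-Seq v4 and Nextera XT libraries, per the labels' protocols. The authors deposited whole-number counts of reads per gene for each library; per the submitters' processing notes the tools were bcl2fastq, STAR 2.5.2b, Picard 2.17.11, Subread featureCounts and the build mm10, with no roles. The files have the layout of STAR gene counts, and the column that ignores strand was used, so overlapping genes (Ctsb with Fdft1, Ctsz with Nelfcd, Ctsa with Pltp, Cd52 with Crybg2) share or lose reads. Lines that name no gene (unmapped, multimapping, outside genes, ambiguous) held 46.6% to 51.4% of reads in IRF8KO and 21.4% to 22.7% in 5xFAD and stayed out. Counts include PCR copies, and nothing says that the numbered libraries of a group come from separate mice beyond the wording of the protocol, so p-values measure the spread between these libraries.

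The 12 libraries of 9 months were fitted in 1 model with edgeR 4.0.16 (R 4.3.3; TMM scaling, default filter on low counts, quasi-likelihood test), and the 8 libraries of 3 months in another. P-values were adjusted by Benjamini-Hochberg over all genes tested, 14604 at 9 months, with a threshold of 0.05, and SE is the estimate divided by the square root of F. Genes at 5 CPM in WT do not depend on the direct contrast and were tested; those at 5 CPM in 5xFAD alone are given as values. For a gene with 0 counts in a group, the fold was taken against 3 counts over that group. Named genes were the listed reactive genes, the 8 largest rises and falls without overlap among protein-coding genes, the largest call of each list in each direction, and, among genes at 5 CPM in 5xFAD alone, the 4 highest and the 4 largest differences each way; other list members were chosen after their values were seen, and a few genes are not reported here. The genes and lists were chosen with earlier results of these data known. The scripts were tested on simulated data. Alternatives used limma 3.58.1, DESeq2 1.42.0, other scalings, filters and thresholds, a replicate block, a Y-linked covariate and the omission of each library. Replicate numbers were checked and did not pair libraries. Gene names and positions come from GENCODE vM21 identifiers, of which 54079 of 54146 matched.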

Additional observations from a re-analysis of the deposited data

Results flagged for a closer look

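In 2 genes the knockout's change from WT went opposite ways at the 2 ages, each change past the threshold at its age. The difference between the ages was not tested. Stab1, the scavenger receptor, changed by -1.81 on the log2 scale at 9 months (edgeR adjusted p = 0.00155) and by 1.79 at 3 months (adjusted p = 0.0138), where WT stood at 70.3 ± 33 and IRF8KO at 243 ± 65.6 CPM (SD, n = 4). Sod1, a superoxide dismutase, changed by 1.84 at 9 months (edgeR adjusted p = 0.0139) and by -1.70 at 3 months (adjusted p = 0.0301), from 99.6 ± 60.9 CPM in WT to 30.7 ± 6.20 in IRF8KO. Red blood cell genes took 3.18% to 10.6% of counts in WT at 3 months and 0.0154% ± 0.00150 (SD, n = 3) in WT at 9 months. In Cst7, 1 of the 4 IRF8KO libraries at 3 months stood at 136 CPM, apart from the other 3 at 50.1 to 60.2 CPM. That gap took 0.882 of the range between the lowest and highest library. In the same libraries the share was 0.815 for Lyz2 and 0.781 for Stab1. Several genes were looked over for such gaps, and how often chance gives them was not tested.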

How the results depend on the processing

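Of 119 named or listed genes called between IRF8KO and 5xFAD, 87 kept their direction and call under all alternatives that gave a value, none reversed, and 56 of 79 not called were never called. With the summed Y-linked level as a covariate, 546 genes in place of 861 were higher in IRF8KO, 10 in place of 16 in the reactive lists. The replicate block gave 708 higher and 1141 lower; replicate numbers did not pair the libraries (correlations of same-numbered deviations 0.0021, -0.0348 and -0.0024). A 1 CPM threshold gave 1211 and 1532 genes, 20 CPM 618 and 1115. Scaling with DESeq2-type size factors shifted the median difference by 0.0997, and the share of calls that were higher in IRF8KO went from 40.5% to 45.7%. Leaving out 1 library, the direct comparison gave 430 to 837 higher and 743 to 1528 lower, the reactive lists 9 to 17 higher, IRF8KO against WT 602 to 1014 and 636 to 1309, 5xFAD against WT 2 to 86 and 0 to 9, and IRF8KO against WT at 3 months 125 to 463 and 74 to 417. For 5xFAD against WT (253 higher, 26 lower), size factors gave 159 higher, no filter 119, DESeq2 586 and 192, limma voom 1882 and 1387, the block 94 and 9, and the 2 groups alone 1986 and 2318. At 3 months (366 and 319), no filter gave 493 lower, DESeq2 727 and 815, voom 623 and 661, and a model of all 33 libraries 1039 and 909. Without red blood cell genes in the total, the border macrophage share difference was 0.108 in place of 0.0969 percentage points. The cause of each shift was not tested. The shallowest WT library held 605376 counts, which limits the precision of low genes there.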

Other observations

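Among the border macrophage markers that reached 5 CPM in WT, Dab2 was higher in IRF8KO and Stab1 in 5xFAD. Among the monocyte markers, Thbs1 was higher in IRF8KO and Ms4a4c in 5xFAD. Stab1 was described above, and the other 3 are given here. Dab2, an endocytic adaptor of border macrophages, read 214, 219 and 173 CPM in IRF8KO, 16.8, 10.3 and 8.77 in 5xFAD and 18.4, 11.1 and 7.27 in WT (log2 difference 4.05 ± 0.39 (SE), edgeR adjusted p = 1.93e-05). Thbs1, a matrix protein that monocytes make, read 38.3, 103 and 230.2 CPM in IRF8KO, 1.91, 1.5 and 0.516 in 5xFAD and 7.80, 3.39 and 4.85 in WT (log2 difference 6.36 ± 0.88 (SE), edgeR adjusted p = 0.000235). Ms4a4c, of the monocyte list, had 3 counts in IRF8KO and stood at 15.5, 11.5 and 14.4 CPM in 5xFAD and 5.2, 6.29 and 6.06 in WT, a ratio of 104 (95% exact counting interval 35.3 to 509.6, counting error only). The Ms4a4c call (edgeR adjusted p = 0.0428) was lost in 8 of 14 alternatives, among them the omission of any 1 of the IRF8KO or 5xFAD libraries (adjusted p up to 0.103).

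Chosen after values were seen, 10 immediate early genes of the response to cell stimulation were looked up, of which 8 reached 5 CPM in WT. Of the 8, Fos, Dusp1 and Ier2 were higher in IRF8KO and 5 did not pass the test, 4 of them with estimates in favour of 5xFAD. Among all genes tested, 19.0% were called higher in IRF8KO, and among the genes at 5 CPM in WT 9.20%. Fos read 117, 71.6 and 71.2 CPM in IRF8KO, 2.18, 0.939 and 1.55 in 5xFAD and 119, 40.2 and 30.3 in WT (log2 difference of IRF8KO minus 5xFAD 5.74 ± 0.66, edgeR adjusted p = 6.46e-05). Dusp1 read 317, 112 and 157 CPM in IRF8KO, 12.4, 11.8 and 21.2 in 5xFAD and 146, 55.2 and 54.5 in WT. Ier2 read 102, 115 and 63.2 CPM in IRF8KO, 32.3, 29.9 and 48.5 in 5xFAD and 165, 98.7 and 49.7 in WT. Between IRF8KO and WT, Fos, Dusp1 and Ier2 did not pass the test (edgeR adjusted p = 0.583, 0.116 and 0.805). In 5xFAD, Fos and Dusp1 were called below WT (edgeR adjusted p = 0.0083 and 0.0412), and Ier2 was not (adjusted p = 0.133). Junb read 96.2, 24.4 and 139.5 CPM in IRF8KO and 221, 331 and 257 in 5xFAD, with no overlap (log2 difference -1.64 ± 0.61, edgeR adjusted p = 0.0627). The differences of Atf3 (-1.30 ± 1.22), Jun (-0.70 ± 0.51), Zfp36 (-0.48 ± 0.41) and Egr1 (1.5 ± 0.75) did not pass the test either.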
